A study of Homo sapiens with 6 samples.

Results

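The circadian clock genes NR1D1, NR1D2, PER1, PER2, PER3, CRY1, CRY2, DBP, TEF and BHLHE40, were followed in the ovarian cancer line ES2. They were found by gene name, and all 10 of 10 were present among the 33706 genes of the deposited table. RNA was sequenced after 7 days from 6 cultures, 1 library per group: Control, which received no drug, T, G (labelled as G4), R, and the groups labelled TR and GR, read here as R combined with T and with G. The study concerns T-oligo, a DNA oligonucleotide modelled on the telomere overhang, together with G4 and RHPS4, a ligand of G-quadruplexes (DNA folded at runs of guanine). The labels do not spell out the single letters T and R. Because each group is 1 library, no group has a spread of its own, and nothing in the labels says that the cultures were set up separately. Every title names ES2, but for G, R, TR and GR the source name is SKOV3, another ovarian cancer line.

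In the mammalian clock, the activators CLOCK (or its relative NPAS2) and BMAL1 bind DNA sites called E-boxes and switch on the PER and CRY genes, whose proteins return to inhibit them. A second loop joins this one. NR1D1 and NR1D2 (REV-ERBα and REV-ERBβ) are nuclear receptors that repress BMAL1 and are themselves E-box targets, opposed at the same sites by the ROR receptors. Further factors act at D-box sites, where DBP and TEF activate and NFIL3 represses. BHLHE40 (DEC1) competes with CLOCK and BMAL1 for E-boxes. PER1 and NR1D1 are also acutely inducible genes in cultured cells. Each culture was sampled once, so a shift in the phase of a rhythm and a change in mean level cannot be told apart, nor can fewer cells with a transcript and less transcript per cell.

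The promoters of 5 members are shown because these genes carry the contrasts described below, NR1D1, PER1 and BHLHE40 being high in the R and TR libraries and PER2 and PER3 low in all libraries with R. The sequences are the RefSeq windows on GRCh38.p14 from 250 bases before the gene's start to 50 bases from it, 5′ to 3′ on the gene's strand. Capitals mark E-boxes (CACGTG), E′-boxes (CACGTT, a variant), ROR element cores (AGGTCA) and D-boxes (TTATGTAA or TTACGTAA), searched on both strands. No 2 of these marked matches overlap.
NR1D1, chr17:40100540-40100839, minus strand: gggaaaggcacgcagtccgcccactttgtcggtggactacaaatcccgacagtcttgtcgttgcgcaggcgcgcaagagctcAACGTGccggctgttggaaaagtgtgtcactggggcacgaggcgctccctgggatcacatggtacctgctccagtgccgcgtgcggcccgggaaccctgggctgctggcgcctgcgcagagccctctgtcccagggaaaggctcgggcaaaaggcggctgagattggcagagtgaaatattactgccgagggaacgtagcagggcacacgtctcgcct
PER1, chr17:8152355-8152654, minus strand: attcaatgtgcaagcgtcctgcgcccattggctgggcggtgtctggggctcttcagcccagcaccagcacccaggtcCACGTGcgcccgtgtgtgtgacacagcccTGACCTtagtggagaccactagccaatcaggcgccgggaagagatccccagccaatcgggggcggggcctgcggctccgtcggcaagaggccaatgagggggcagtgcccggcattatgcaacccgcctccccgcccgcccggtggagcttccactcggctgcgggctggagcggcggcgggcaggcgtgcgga
BHLHE40, chr3:4979187-4979486, plus strand: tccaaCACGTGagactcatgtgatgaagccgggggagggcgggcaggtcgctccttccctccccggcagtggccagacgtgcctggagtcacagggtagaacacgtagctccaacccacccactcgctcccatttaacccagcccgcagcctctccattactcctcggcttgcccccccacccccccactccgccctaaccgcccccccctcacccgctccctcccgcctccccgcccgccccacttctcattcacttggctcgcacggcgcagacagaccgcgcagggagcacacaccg
PER2, chr2:238288561-238288860, minus strand: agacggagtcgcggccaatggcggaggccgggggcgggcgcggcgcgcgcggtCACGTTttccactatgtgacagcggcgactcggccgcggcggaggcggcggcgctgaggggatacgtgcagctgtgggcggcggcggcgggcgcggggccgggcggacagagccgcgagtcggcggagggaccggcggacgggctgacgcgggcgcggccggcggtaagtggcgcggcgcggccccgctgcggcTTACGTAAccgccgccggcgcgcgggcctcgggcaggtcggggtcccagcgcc
PER3, chr1:7784041-7784340, plus strand: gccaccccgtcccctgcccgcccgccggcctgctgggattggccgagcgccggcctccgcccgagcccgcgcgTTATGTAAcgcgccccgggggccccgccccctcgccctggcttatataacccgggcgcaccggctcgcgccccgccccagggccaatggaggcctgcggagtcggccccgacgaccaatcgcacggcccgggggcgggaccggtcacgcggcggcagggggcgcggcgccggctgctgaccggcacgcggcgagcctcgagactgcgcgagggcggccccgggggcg

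The 10 members had 14 such windows, since some genes have several starts. An E-box lay in 5 of the 14 windows, against 7.26% of the 35116 windows of all genes. An E′-box lay in 4 of 14 windows (5.34% of all), a ROR element core in 3 of 14 (13.8% of all), the D-box TTATGTAA in 2 of 14 (0.886% of all) and the D-box TTACGTAA in 1 of 14 (0.125% of all). PER1 and BHLHE40 each had 1 E-box, and NR1D1 had 1 E′-box. PER2 had an E′-box and a D-box that spans its start, and PER3 had a D-box. No window of a member held the full cAMP response element TGACGTCA, which 1.85% of all windows hold. A G-quadruplex pattern, meaning 4 runs of at least 3 guanines on either strand separated by 1 to 7 bases, lay in 9 of 14 windows, against 25% of all windows. PER1, BHLHE40 and PER3 had that pattern in the windows shown, and NR1D1 and PER2 did not. The windows shown were 63 to 80.7% G and C, above the median of 58.7% for all windows. These matches are descriptions of letters and were not tied to binding.

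Library totals ran from 73213048 to 83976498 counts, and any 2 libraries differed by more than sampling noise. ERBB2, which is amplified in SKOV3, lay between 0.146 and 0.721 FPKM, and CDKN2A, which is deleted there, between 74.4 and 146 FPKM, in all 6 libraries. FPKM are fragments scaled to transcript length and library size, so they allow levels of different genes to be set side by side. Of 6 epithelial markers, KRT7, KRT8 and KRT18 were expressed, while EPCAM, CDH1 and KRT19 were below 1 FPKM in every library. All 3 mesenchymal markers were expressed, VIM at 929 to 1919 FPKM, FN1 at 99.1 to 317 FPKM and CDH2 at 11.1 to 23.1 FPKM. Of 5 leukocyte markers, 2 were missing from the table and 3 were under 1 FPKM everywhere. Of 4 endothelial markers, only CDH5 passed 1 FPKM in any library. The 7 mitochondrial mRNAs followed as a marker of the response to R summed to between 26123 and 39756 FPKM without R and between 749 and 1319 FPKM with R, so they moved with every difference between libraries with and without R given here. Their part in those differences was not tested.

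The question for R was which clock genes differ with it whichever oligo is present. NR1D1 and PER1 rose with R, and they were the only 2 of 10 members called. The call rests on an additive model of oligo (none, T or G) and R fitted to the counts of 20922 genes with edgeR's quasi-likelihood test, at a Benjamini-Hochberg adjusted p under 0.05. That model called 2.5% of all genes for R, 1.19% higher and 1.31% lower. That is 248 genes higher and 275 lower, a split of 696 and 304 once a trend with GC content and length was removed. All 10 members passed its filter on low counts. Their median log2 fold change was 0.76, beside -0.06 over all genes tested. At an unadjusted p under 0.05, 5 of the 10 members lay higher and 3 lower, and 5681 of the 20922 genes tested passed that mark. With 1 library per group the p-values measure only the departure of the 6 libraries from additivity, with 2 residual degrees of freedom.

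NR1D1 (ENSG00000126368, chromosome 17, 40092793 to 40100589, minus strand) stood at 3.31 FPKM in Control, 3.19 in T, 2.38 in G, 27.7 in R, 23.7 in TR and 6.47 in GR. All 3 libraries with R lay above the 3 without, and R and TR stood far above GR. Its level was 8.37 times that of Control in R, 7.43 times that of T in TR and 2.72 times that of G in GR. Its log2 fold change in the model was 2.69 (SE 0.38, edgeR quasi-likelihood adjusted p = 0.0244), and the ratio of FPKM + 1 was 2.15 ± 0.87 on the log2 scale (SD, n = 3 pairs of libraries). Of all genes tested, 1.27% had as high a fold change. The call was lost without Control (adjusted p = 0.0736), without T (0.0542) and without TR (0.0719), and with the line of the source name as a term (0.652), where only GR and G inform the effect of R. The last bases of NR1D1 overlap those of THRA on the opposite strand over 1075 bases, and the use of strand in counting is not stated. THRA, a thyroid hormone receptor gene, lay between 3.01 and 4.97 FPKM and was not called (log2 fold change 0.51, adjusted p = 0.218).

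NR1D2, the paralog of NR1D1, did not follow it. It stood at 5.86 FPKM in Control, 13.3 in T, 8.88 in G, 12.0 in R, 8.31 in TR and 9.84 in GR. The libraries with and without R overlapped, and the highest level was in T. Its log2 fold change for R was 0.37 (SE 0.32, adjusted p = 0.49), and 0.81 with the trend over genes with GC content and length removed (adjusted p = 0.0773). NR1D2 overlaps NKIRAS1 on the opposite strand over 1306 bases, and NKIRAS1 had 1211 to 2606 counts. Per length, NR1D1 was at 0.566, 0.239 and 0.268 of the NR1D2 level in Control, T and G and at 2.31, 2.85 and 0.657 of it in R, TR and GR. NR1D1 was thus the lower of the pair in the 3 libraries without R and in GR, and the higher in R and TR.

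Among the PER genes, which encode the scaffolds of the repressor complex, PER1 lay opposite to PER2 and PER3. PER1 (ENSG00000179094, chromosome 17, 8140472 to 8156405, minus strand) stood at 4.17 FPKM in Control, 5.19 in T, 4.20 in G, 29.2 in R, 22.7 in TR and 8.99 in GR. As for NR1D1, the libraries with R were all above those without, with GR nearest to them. PER1 rose by a log2 fold change of 2.22 (SE 0.36, edgeR adjusted p = 0.0331), with a pair ratio of 1.81 ± 0.81 (SD, n = 3 pairs of libraries). Its call was lost without Control (adjusted p = 0.0823), T (0.0825), R (0.0516) or TR (0.0966), and with the line of the source name as a term (adjusted p = 1). The unnamed gene ENSG00000263620 overlaps PER1 on the same strand but had at most 61 counts, against 2475 to 18171 counts for PER1.

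PER2 stood at 0.812 FPKM in Control, 1.38 in T, 1.06 in G, 0.543 in R, 0.539 in TR and 0.603 in GR. The libraries with R were all below those without and close to one another, but the gene was not called (log2 fold change -0.71, SE 0.29, adjusted p = 0.161). PER3 stood at 0.982, 1.87 and 0.900 FPKM in Control, T and G and at 0.584, 0.429 and 0.549 FPKM in R, TR and GR. Again T was highest and the libraries with R were all below those without, and PER3 was not called either (log2 fold change -0.98, SE 0.33, adjusted p = 0.112). Its fold change was -0.58 without T or without TR. PER1 was 5.14, 3.77 and 3.98 times as high as PER2 in Control, T and G, and 53.8, 42.1 and 14.9 times as high in R, TR and GR. Its ratio to PER3 went from between 2.77 and 4.67 without R to between 16.4 and 52.9 with R.

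The CRY genes encode the part of the complex that binds CLOCK and BMAL1, and the pair also lay on opposite sides. CRY1 stood at 7.61 FPKM in Control, 8.17 in T, 9.86 in G, 4.04 in R, 3.37 in TR and 7.89 in GR. R and TR were the lowest, while GR lay among the libraries without R, so the groups overlapped (log2 fold change -0.63, SE 0.24, adjusted p = 0.138). That value was -0.18 with the GC and length trend removed and -0.24 with the line of the source name as a term. CRY2 stood at 1.78, 1.50 and 1.46 FPKM in Control, T and G and at 2.69 in R, 2.95 in TR and 2.24 in GR. Its libraries with R were all above the others, without a call (log2 fold change 0.93, SE 0.26, adjusted p = 0.075). Its log2 pair ratio was 0.49 ± 0.15 (SD, n = 3 pairs of libraries), the smallest spread among the 9 members that reach 1 FPKM. CRY1 was 4.28 to 6.73 times as high as CRY2 without R and 1.50, 1.14 and 3.52 times as high in R, TR and GR.

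BHLHE40 stood at 6.17 FPKM in Control, 5.76 in T, 5.34 in G, 15.3 in R, 20.3 in TR and 5.66 in GR. R and TR were high and GR lay within the range of the libraries without R. It was not called (log2 fold change 1.28, SE 0.37, adjusted p = 0.082). Without G or without GR, which leaves R against Control and TR against T, it was called (log2 fold change 1.83, adjusted p = 0.00188 and 0.00339). The fold change was 0.84 without T or without TR (adjusted p = 0.337 and 0.36), and 0.16 with the line of the source name as a term (adjusted p = 1). BHLHE41 (DEC2), its paralog and also a repressor at E-boxes, stood at 8.01, 11.5 and 6.13 FPKM in Control, T and G and at 1.87, 3.31 and 4.04 FPKM in R, TR and GR. All its libraries with R were below the others (log2 fold change -1.30, SE 0.31, adjusted p = 0.0583). The ratio of BHLHE40 to BHLHE41 was 0.771, 0.501 and 0.872 in Control, T and G and 8.17, 6.11 and 1.40 in R, TR and GR.

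The D-box activators were low and not called. DBP stood at 0.242, 0.195 and 0.217 FPKM in Control, T and G and at 0.258, 0.418 and 0.474 FPKM in R, TR and GR, from 99 to 278 counts. It was the only member under 1 FPKM in every library, and although its libraries with R were all above the others, the ratio was 1.07 for R over Control, 2.14 for TR over T and 2.18 for GR over G. DBP overlaps SPHK2 on the opposite strand over 688 bases, and SPHK2 had 1249 to 2195 counts. TEF stood at 1.40, 1.95 and 1.02 FPKM in Control, T and G and at 2.19, 2.03 and 1.40 FPKM in R, TR and GR, and its groups overlapped. Neither was called (DBP log2 fold change 0.98, SE 0.39, adjusted p = 0.155; TEF 0.59, SE 0.27, adjusted p = 0.197).

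**Figure D1:**
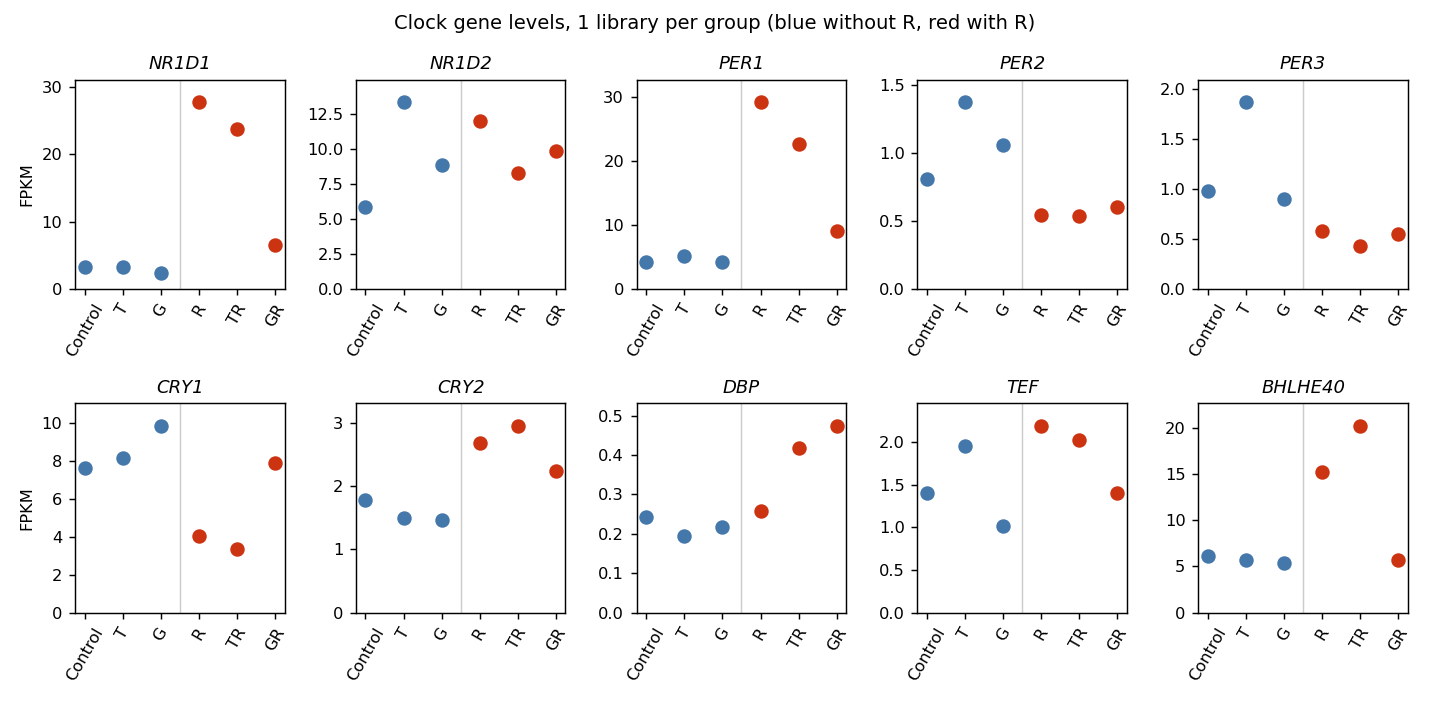
FPKM of the 10 clock genes in each of the 6 libraries, 1 point per library, with a separate linear axis from 0 for each gene; blue points are libraries without R and red points libraries with R. NR1D1 and PER1 reach 27.7 and 29.2 FPKM in R and stand at 6.47 and 8.99 FPKM in GR, while PER2 and PER3 are lower with R than without.

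Set against all genes, the separation of libraries by R was not uncommon. Of the 9 members with at least 1 FPKM in a library, 3 had all libraries with R above those without (NR1D1, PER1 and CRY2), and 13.5% of the 13259 genes at that level did. For 2 of 9, PER2 and PER3, all libraries with R were below, against 18.7% of genes. A 2-sided exact permutation test of 3 libraries against 3 cannot go below p = 0.1, so no such test was run per gene.

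In single pairs of libraries the 2-fold mark on the log2(FPKM + 1) scale was reached as follows. This scale understates changes, most of all for genes near or under 1 FPKM, and single pairs have no replicate check. In R against Control, 3 of 9 members were at least 2-fold higher and none lower. These were NR1D1 (2.74), PER1 (2.55) and BHLHE40 (1.18). Of all genes 9.29% were 2-fold different in that pair, 355 higher and 877 lower. In TR against T, NR1D1, PER1 and BHLHE40 were at least 2-fold higher (2.56, 1.94 and 1.65) and PER3 (-1.01) and CRY1 (-1.07) lower. That pair had 16.9% of all genes 2-fold different, 752 higher and 1487 lower. In GR against G only NR1D1 passed the mark on this scale (1.14), with PER1 at 0.94 and BHLHE40 at 0.07. There 3.38% of all genes were 2-fold different, 173 higher and 275 lower. As plain FPKM ratios, without the added 1, further members passed 2-fold. PER1 in GR was 2.14 times its level in G, and NR1D2 in R was 2.05 times its level in Control. PER2 in TR was at 0.392 of its level in T. The median of the 9 members was 0.41, 0.04 and 0.13 in these pairs, and that of all genes -0.13, -0.17 and -0.01. With depth-scaled (TMM) counts in place of FPKM the medians of all genes were 0.02, 0.08 and 0.05. Such a shift applies to every FPKM ratio between libraries, and its size differs by pair. In GR against R the median of all genes was 0.22 with FPKM and -0.03 with TMM counts. Ratios between genes within a library are not affected.

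**Figure D2:**
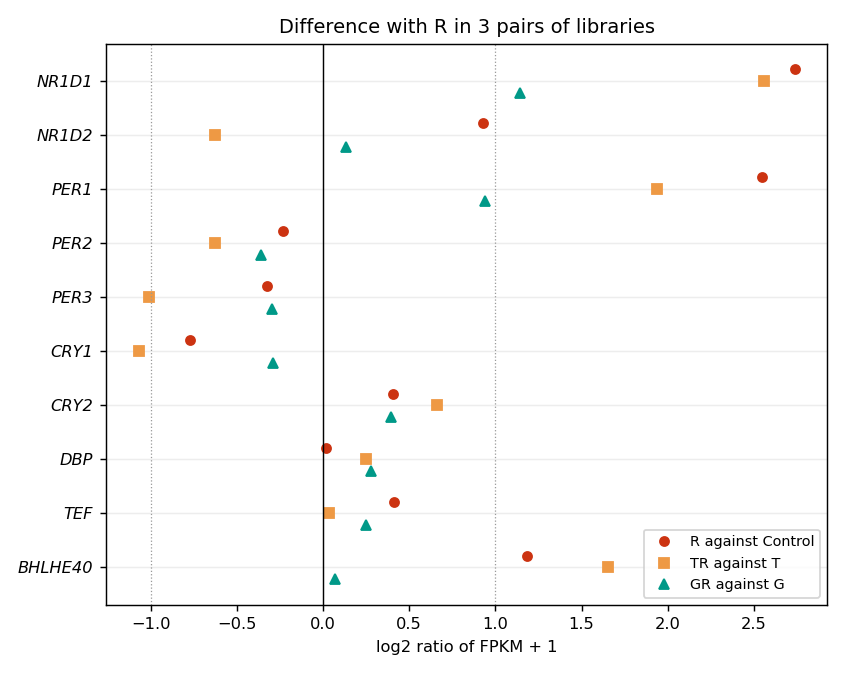
Log2 ratio of FPKM + 1 for each of the 10 clock genes in the 3 pairs of libraries that differ by R: R against Control (circles), TR against T (squares) and GR against G (triangles); dotted lines mark 2-fold. For NR1D1, PER1 and BHLHE40 the GR against G ratio (1.14, 0.94 and 0.07) is the smallest of the 3, and NR1D2 lies on both sides of 0.

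The background with G therefore gave smaller ratios for the members that were highest with R. This was not particular to them. Over all genes, 3.38% were 2-fold different in GR against G, beside 9.29% in R against Control and 16.9% in TR against T. The median log2 ratio of the 7 mitochondrial mRNAs was -4.34 in GR against G, -5.61 in R against Control and -4.72 in TR against T. The ratio of GR against G was below that of R against Control by 1.59 for NR1D1, by 1.61 for PER1 and by 1.11 for BHLHE40, all on the log2 scale. TR against T differed from R against Control by -0.18, -0.61 and 0.47 for the same genes. Adding 1 term to the model for the departure of GR from additivity left 1 residual degree of freedom, and 0.129% of all genes were called in that edgeR test. No member was, and 3 had an unadjusted p under 0.05, where 872 of the 20922 genes tested did. The departure in counts was -1.73 for NR1D1 (SE 0.64, adjusted p = 0.925), -1.57 for PER1 (SE 0.66, adjusted p = 1) and -1.67 for BHLHE40 (SE 0.65, adjusted p = 1). The like test for TR called 0.0% of all genes. An unadjusted p under 0.05 was found for 1079 of the 20922 genes tested there, and for no member. By source name, GR and G are of 1 line while R and Control are not, so the background and the labelled line cannot be told apart here.

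For G the comparison was made without R (G against Control) and with R (GR against R). No member was called for G across backgrounds, where 0.0335% of all genes were called. At an unadjusted p under 0.05, 3 members lay lower with G and none higher, where 2492 of the 20922 genes tested passed that mark. These members were NR1D1 (log2 fold change -1.50, SE 0.45, adjusted p = 0.343), PER1 (-1.09, SE 0.43, adjusted p = 0.403) and TEF (-0.84, SE 0.33, adjusted p = 0.4). Without GR the fold change was -0.72 for NR1D1 and -0.36 for PER1. Over all genes, DESeq2 called 413 of 33706 for G. DESeq2 called 1 member for G, NR1D1 (adjusted p = 0.0236), and edgeR called it without the G library (log2 fold change -2.44, adjusted p = 0.0116) and with the line of the source name as a term (-2.44, adjusted p = 0.0129), fits that draw the effect of G from GR against the other libraries with R. In G against Control no member was at least 2-fold different, where 3.73% of all genes were, and NR1D1, PER1 and BHLHE40 had log2 ratios of -0.35, 0.01 and -0.18. In GR against R, by contrast, 3 of 9 members had a ratio of -1 or below and none of 1 or above. These 3 were NR1D1 (-1.95), PER1 (-1.60) and BHLHE40 (-1.29), while CRY1 had the highest ratio at 0.82. Over all genes 7.3% were 2-fold different, 823 higher and 145 lower. On the log2(FPKM + 1) scale, NR1D1, PER1 and BHLHE40 were also the members at least 2-fold higher in R against Control. Both pairs share the R library. Their low ratios in GR against R are therefore not a separate result for G.

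For T the same comparison gave little. No member was called for T across backgrounds, where 0.00478% of all genes were called. None had an unadjusted p under 0.05, which 767 of the 20922 genes tested had. DESeq2 called none of the members either. Their fold changes lay between -0.27 for NR1D1 and 0.25 for PER2 on the log2 scale. In T against Control, NR1D2 was the only member at least 2-fold different, at 1.06, where 4.7% of all genes were 2-fold different. PER3 and PER2 had ratios of 0.53 and 0.39 in that pair. In TR against R no member was at least 2-fold different, where 0.845% of all genes were, and NR1D2, PER3 and PER2 had ratios of -0.48, -0.15 and 0.00. The T library, in which NR1D2, PER2 and PER3 had their highest levels, also had the lowest level of 8 cycling cell markers, which summed to 91.1 FPKM in T and to between 347 and 459 FPKM in the other libraries. The part of cycling cells in the levels of these clock genes was not tested.

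**Figure D3:**
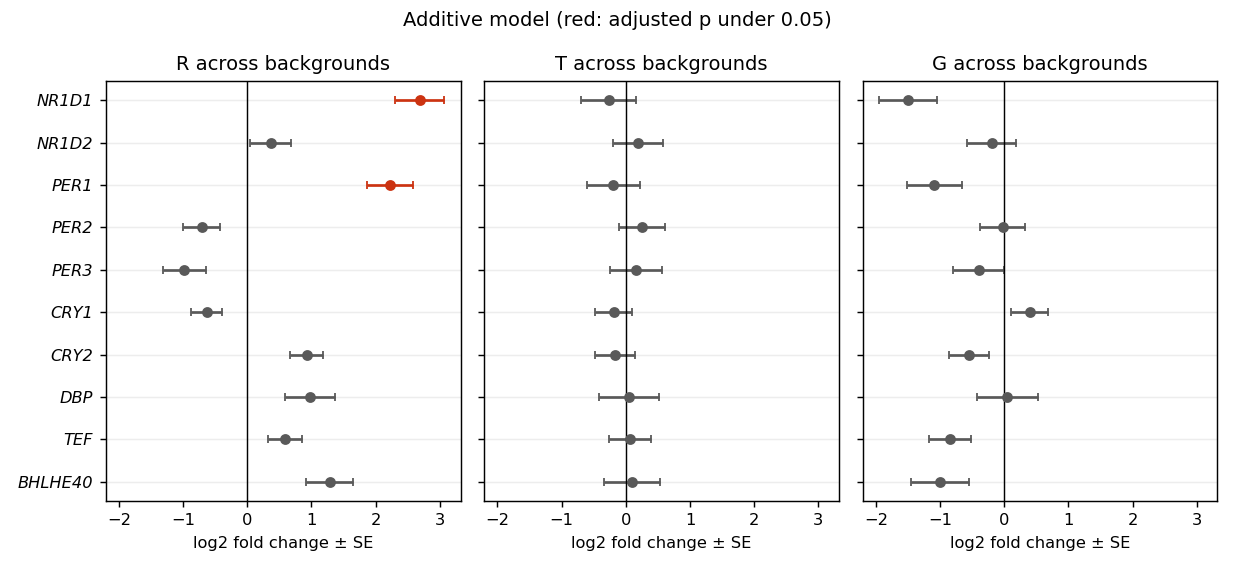
Log2 fold change of the 10 clock genes for R, T and G from the additive edgeR model, with bars of 1 SE derived from the quasi-likelihood F; red points have an adjusted p under 0.05. Only NR1D1 (2.69) and PER1 (2.22) for R are called, and for G the same genes lie lowest, at -1.50 and -1.09, without a call.

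The order of the levels differed between libraries, also among those without R. In Control it ran from CRY1 at 7.61 FPKM through BHLHE40, NR1D2, PER1, NR1D1, CRY2, TEF, PER3 and PER2 to DBP at 0.242 FPKM. NR1D2 led in T at 13.3 FPKM, and CRY1 led in G at 9.86 FPKM. In R, PER1 and NR1D1 led at 29.2 and 27.7 FPKM, followed by BHLHE40 and NR1D2, and in TR the leading 2 changed places. In GR, NR1D2 led at 9.84 FPKM, with PER1 at 8.99 and CRY1 at 7.89 FPKM next. DBP was lowest in all 6 libraries. With 1 library per group, whether neighbours in these orders differ beyond replicate spread cannot be said.

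Across the 6 libraries, the genes whose pattern was most like that of NR1D1 were sought among 2812 genes with a symbol of their own, at least 5 FPKM in a library and at least a 2-fold range. Ranked by Pearson's r on log2(FPKM + 1), they were GADD45B (0.994), PER1 (0.994), ING1 (0.992), H2AC18 (0.991) and OSER1 (0.991). GADD45B, a stress-inducible gene, stood at 25.2, 30.9 and 19.8 FPKM in Control, T and G and at 166, 172 and 47.8 FPKM in R, TR and GR. H2AC18 is a near-identical copy of another histone gene and its counts are uncertain. For PER3 the most alike were RFK (0.998), PRMT3 (0.997), ABCC4 (0.990), CD274 (0.985) and TIMM9 (0.979). Like PER3, each of these genes had its highest level in the single T library. RFK stood at 10.6 FPKM in T, 6.21 in Control and 4.87 in R. Each r is over 6 libraries that share the contrast of R and its other effects, and describes these libraries only.

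Of 39 other clock genes in 5 lists, 2 were called higher with R and 2 lower, beside the 2.5% of all genes called, and their median log2 fold change was 0.06. DESeq2 called 11 for R, where it called 3664 of 33706 genes. For T neither tool called a gene of these lists. For G edgeR called none and DESeq2 called CIART, where DESeq2 called 413 of 33706 genes. The positive limb, the activators CLOCK, BMAL1, BMAL2 and NPAS2, had 0 of 4 called. BMAL1, the target of NR1D1 and NR1D2 repression, stood at 1.76, 2.47 and 2.87 FPKM in Control, T and G and at 1.75, 1.68 and 3.19 FPKM in R, TR and GR. It did not separate the libraries by R although NR1D1 did (log2 fold change 0.07, SE 0.24, adjusted p = 0.889). CLOCK lay at 1.18 to 2.00 FPKM without R and at 0.709, 0.574 and 1.39 FPKM in R, TR and GR (log2 fold change -0.74, SE 0.27, adjusted p = 0.127). NPAS2 lay at 8.71 to 10.2 FPKM without R and at 6.57 to 7.32 FPKM with R (log2 fold change -0.24, SE 0.21, adjusted p = 0.499). BMAL2 was the highest of the list, at 16.3, 14.9 and 17.1 FPKM in Control, T and G and at 11.7, 8.20 and 8.85 FPKM in R, TR and GR. All its libraries with R were below the others, without a call (log2 fold change -0.56, SE 0.23, adjusted p = 0.159).

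Of 7 ROR and D-box factors, NFIL3 was called higher and HLF lower. NFIL3, the D-box repressor, stood at 8.13, 13.0 and 10.6 FPKM in Control, T and G and at 48.1 FPKM in R, 44.2 in TR and 22.3 in GR. Its order of groups resembled that of PER1, with GR between the other libraries with R and those without (log2 fold change 2.00, SE 0.33, adjusted p = 0.034). HLF, a D-box activator of the DBP and TEF family, had 56, 121 and 114 counts in Control, T and G and 0, 7 and 11 counts in R, TR and GR (adjusted p = 0.0446). Against a floor of 3 counts per library, scaled to depth, it was at least 19.2-fold lower in R than in Control, and it stayed under 1 FPKM everywhere. NFIL3 and HLF lost their calls without any 1 of Control, T, R and TR (adjusted p from 0.0527 to 0.178), and with the line of the source name as a term (adjusted p = 1 and 0.618). RORA, an activator that competes with the REV-ERB receptors, was under 1 FPKM in every library and was not called (log2 fold change -0.18, SE 0.35, adjusted p = 0.778). CIART, a repressor of CLOCK and BMAL1, stood at 2.16, 2.58 and 0.985 FPKM in Control, T and G and at 3.67, 3.25 and 1.59 FPKM in R, TR and GR (log2 fold change for R 0.79, adjusted p = 0.11). G and GR were its lowest libraries (log2 fold change for G -1.45, SE 0.33, edgeR adjusted p = 0.264, DESeq2 adjusted p = 0.00866).

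Of 12 kinases, phosphatases and ligases of the PER and CRY proteins none was called. The casein kinases that phosphorylate PER proteins were at 18.8 to 31.1 FPKM (CSNK1D) and 25.3 to 41.1 FPKM (CSNK1E) over the 6 libraries. CSNK1E was higher in each library with R than in each without (log2 fold change 0.66, SE 0.21, adjusted p = 0.0971). BTRC, a ubiquitin ligase subunit that targets PER proteins, stood at 5.11, 5.21 and 4.56 FPKM in Control, T and G, at 1.62 and 1.80 FPKM in R and TR and at 4.73 FPKM in GR (adjusted p = 0.151). Like BHLHE40 and CRY1, it had GR among the libraries without R.

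Of 10 co-factors 1 was called, SFPQ, an RNA- and DNA-binding partner of NONO in PER complexes. SFPQ fell with R. It had 38.5 FPKM in Control, 39.0 in T and 41.1 in G, but only 9.83 in R, 10.5 in TR and 15.2 in GR (log2 fold change -1.56, SE 0.22, adjusted p = 0.0233). That call was lost without Control (adjusted p = 0.0744) and without R (0.0511), and with the line of the source name as a term (0.818). Of 6 clock outputs 1 was called higher, the cell cycle inhibitor CDKN1A, at 1.49, 1.21 and 3.42 FPKM in Control, T and G and 3.30 FPKM in R, 5.25 in TR and 6.63 in GR (log2 fold change 1.60, SE 0.33, adjusted p = 0.0488). Its groups overlapped, G lying above R, and the call was lost without any 1 of Control, T, R and TR (adjusted p from 0.0691 to 0.211) and with the line of the source name as a term (adjusted p = 1).

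**Figure D4:**
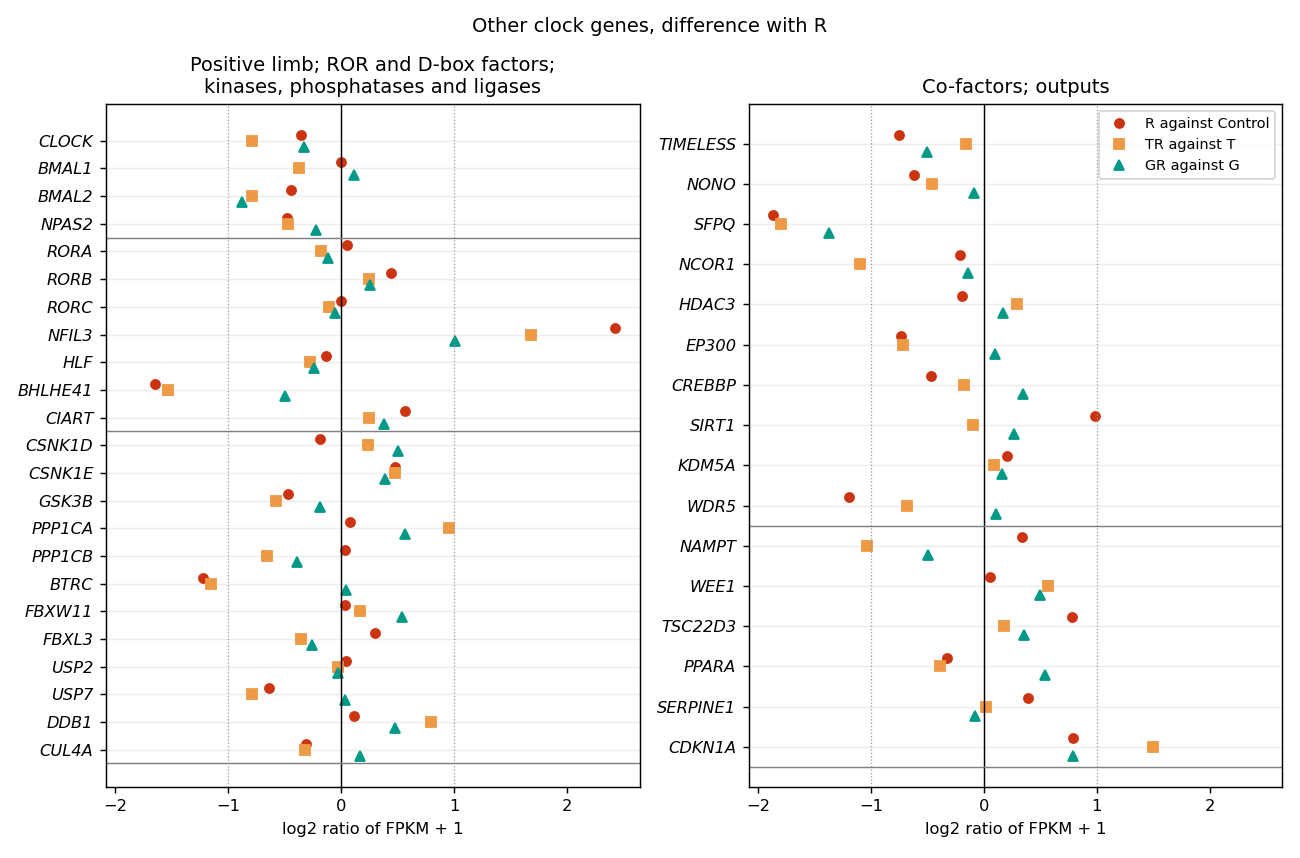
Log2 ratio of FPKM + 1 for 39 other clock genes in the 3 pairs of libraries that differ by R, grouped by list with horizontal lines between lists; dotted lines mark 2-fold. NFIL3 lies highest in R against Control (2.43), SFPQ lies below -1 in all 3 pairs, and BMAL1 lies near 0 in R against Control.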

How the data were processed

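RNA of 6 cultures, 1 per group, was made into strand-marked libraries after oligo(dT) selection, per the labels' protocols. The authors deposited whole-number counts and FPKM per gene, per the file headers. HISAT2 2.2.1, StringTie 2.1.6 and cutadapt 1.9, beside edgeR and DESeq2, appear in the submitters' processing notes with no role. The genome build was not given in the sources used here; GENCODE v29 (GRCh38) held 92.6% of the identifiers, 99.9% of them at overlapping positions.

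Deposited counts were fitted with edgeR 4.0.16 in R 4.3.3 (TMM, filterByExpr, quasi-likelihood, oligo plus R), with Benjamini-Hochberg adjustment over 20922 genes at 0.05; SEs are the fold change over the root of F. A further fit added 1 term for the departure of GR, or of TR, from additivity. Both steps were tested on counts simulated with the same dispersion for every gene. The requirement was that median estimates lie near the simulated fold changes, so it does not vouch for the calls. Pair ratios used log2(FPKM + 1) over 13259 genes with at least 1 FPKM in a library, untested. Alternatives were median-ratio scaling, no filter, DESeq2 1.42.0, limma 3.58.1 on FPKM, the source-name line, a GC and length trend and each library left out. The members and lists were chosen with earlier results of these data known. Genes named are the members, called or repeatedly 2-fold different clock genes, the defining clock genes, markers, overlapping genes and the 5 most alike. Counting error alone underlies depth limits, as there are no molecular identifiers.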

Additional observations from a re-analysis of the deposited data

Results flagged for a closer look

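NR1D2 lay in opposite directions with R in different backgrounds. It was higher in R against Control, with a log2 ratio of 0.93, and lower in TR against T, with one of -0.62. In an edgeR test of the departure of TR from additivity, NR1D2 stood at -1.09 (SE 0.54, adjusted p = 0.963), which does not pass the threshold.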

How the results depend on the processing

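Clock genes called for R numbered 2, and 0 without a filter on low counts, 0 with the line of the source name as a term and 5 with DESeq2 (NR1D1, PER1, PER3, CRY2 and BHLHE40). With 1 library left out they numbered 0 to 3. For G the count of 0 became 1 with that term and 1 with DESeq2, and 0 to 1 with a library left out. For T it was 0 in every setting run. Over all genes, 523 were called for R, against 24 without a filter, 82 with the line term, 1000 with the GC and length trend removed, 3664 with DESeq2, 1888 with limma, and 66 (without Control) to 2231 (without G) with a library left out. For T, 1 was called, against 0 without a filter, 42 with the line term, 25 with DESeq2, 3 with limma, and 2 to 50 with a library left out. For G, 7 were called, against 0, 354, 413 and 37 in these settings and 12 to 337 with a library left out. The fold change of NR1D2 for R ran from -0.064 (without R, with -0.063 without Control) to 0.74 (without TR) with a library left out, and was 0.81 with the GC and length trend removed. Every call for R among the members and other clock genes named was lost without a filter on low counts (adjusted p from 0.198 to 0.208). The tests of departure in GR and TR were added after seeing the data; for GR 27 genes were called, and 6 with median-ratio scaling. Among clock genes, the 2-fold count in GR against G went from 1 to 2 with a pseudocount of 0.1, with TMM and with median-ratio scaling, and that in T against Control from 1 to 0 with TMM. Over all genes, a pseudocount of 0.1 raised the 2-fold counts to 2820 (R against Control, from 1232), 4104 (TR against T, from 2239), 1270 (GR against G, from 448), 1570 (T against Control, from 623), 521 (TR against R, from 112), 1361 (G against Control, from 494) and 2587 (GR against R, from 968). TMM and median-ratio scaling gave 1926 and 1921 in R against Control, 739 and 732 in GR against G, 1065 and 1031 in T against Control, and 214 and 216 in TR against R. The cause of these shifts was not tested. No paired analysis was possible because the labels give no replicate number that groups share; the pairs of libraries share an oligo background, which the model already holds as a term. DBP, with at most 278 counts in a library, is the member whose level is least precise.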
